A study of Mus musculus with 71 samples.

Results

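This report describes the striatal microRNAs (miRNAs) of DYT1KI mice with a sciatic nerve crush against those of naive WT mice, that is, of mice with both the dystonia mutation and the injury against mice with neither. The libraries were chosen by tissue, genotype and treatment from the labels, which gave 12 of the 71 libraries of the study, 6 per group. The DYT1KI crush group held male knock-in mice whose right sciatic nerve was crushed for 1 minute at 12 weeks of age. The WT naive group held male wild-type mice without a crush. Left striatum, the side opposite the injury, was taken from both, and the labels give 12 weeks after injury as the time for every library, naive ones included. WT crush and DYT1KI naive mice, also 6 striatum libraries each, entered the same model and give the effect of each hit alone. Neither the zygosity nor the strain of the knock-in mice is stated in the labels, and mature miRNA counts hold no readout of Tor1a with which to check the genotype. Each library of a group carries its own animal number, so the libraries were taken as separate mice.

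DYT-TOR1A dystonia is caused by a mutation of torsinA, a membrane-bound ATPase found in the endoplasmic reticulum and around the nucleus, and most carriers never develop symptoms. The DYT1KI mouse carries the corresponding mutation in its own Tor1a gene, and nerve injury serves as the second hit. The striatum, the input nucleus of the basal ganglia, consists mainly of inhibitory spiny projection neurons that receive cortical glutamate and midbrain dopamine. A mature miRNA directs the Argonaute complex to messenger RNAs mainly through its seed, bases 2 to 8, so miRNAs with the same seed share many predicted targets.

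The sequences below are the leading miRNAs of the comparison, first the lower and then the higher ones by p-value. miR-379-3p stands beside the leading miRNA whose seed it shares, and the last 2 are the seed pair miR-132-3p and miR-212-3p, described further on. They are shown because the seeds show which of these miRNAs could read the same sites. They are the mature RNAs of the RefSeq annotation of GRCm38.p6, 5′ to 3′, with the seed in capitals.
miR-337-3p: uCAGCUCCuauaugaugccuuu
miR-218-5p: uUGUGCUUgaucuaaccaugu
miR-411-3p: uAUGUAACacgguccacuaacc
miR-379-3p: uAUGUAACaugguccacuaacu
miR-380-3p: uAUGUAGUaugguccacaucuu
miR-149-5p: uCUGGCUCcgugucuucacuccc
miR-1843b-3p: cCGAUCGUuccccuccauac
miR-1224-5p: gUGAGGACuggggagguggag
miR-25-5p: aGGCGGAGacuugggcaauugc
miR-181a-2-3p: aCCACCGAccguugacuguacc
miR-132-3p: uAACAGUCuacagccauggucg
miR-212-3p: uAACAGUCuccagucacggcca

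miR-487b-3p also belongs to the leading miRNAs. Among the 547 miRNAs tested, 470 matched the RefSeq table. Among these, the seed of miR-411-3p is shared by 1 other miRNA, miR-379-3p, and miR-212-3p shares its seed with miR-132-3p. The other leading miRNAs with a sequence had no relative with the same seed there, although miR-411-3p and miR-380-3p hold the same base at 14 of 22 positions when aligned from their 5′ ends without gaps. miR-337-3p lies on chromosome 12 at chr12:109585850-109585871, miR-411-3p at chr12:109710225-109710246 and miR-380-3p at chr12:109711842-109711863, all on the plus strand and within the imprinted Dlk1-Dio3 domain, whose miRNAs are expressed from the maternal chromosome. miR-218-5p comes from 2 hairpins, one at chr5:48223966-48223986 and one at chr11:35616840-35616860, which lie in introns of the axon guidance genes Slit2 and Slit3.

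Total counts were 7192827 to 8974289 per DYT1KI crush library and 6161668 to 9789011 per WT naive library, and 3 counts correspond to at most 0.509 CPM, the level unit used here after TMM scaling. miR-187-3p and miR-138-5p, the markers chosen for striatum, were at 3980 to 6220 CPM and 34000 to 57670 CPM in the 12 libraries under a scaling common to the 3 regions, against 100 to 719.3 and 12860 to 20250 CPM in cortex and 416.8 to 747.3 and 7765 to 13190 CPM in cerebellum. On the first principal component of all 24 striatum libraries, which held 17.3% of the variance, DYT1KI crush replicate 3 and WT crush replicate 2 lay farthest out, at opposite ends. Animal numbers under 100 belonged to 3 of 6 DYT1KI crush mice and 1 of 6 WT naive mice. What that numbering stands for is not given in the sources used here, and within-range fits were added after seeing the data. Among animal numbers of 100 and over, 3 DYT1KI crush and 5 WT naive mice, the comparison below gave 0 calls, with 24 miRNAs at an unadjusted p under 0.05. Under 100, where the single WT naive mouse is assumed to vary like the other groups, it gave 1 call and 39 miRNAs at an unadjusted p under 0.05. The call was miR-494-5p (adjusted p = 0.0218, edgeR), with counts of 12 to 19 in the 3 DYT1KI crush libraries and 0 in the WT naive library. Among all 12 libraries it had a count of 0 in 2 of 6 DYT1KI crush and 3 of 6 WT naive libraries. With the range as a model term there were 0 calls, with 40 miRNAs at an unadjusted p under 0.05.

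No striatal miRNA differed between DYT1KI crush and WT naive mice at an adjusted p under 0.05. edgeR's quasi-likelihood test with Benjamini-Hochberg adjustment called 0 of 547 miRNAs (0%), with a smallest adjusted p of 0.491. At an unadjusted p under 0.05 there were 49 miRNAs (8.96%), 30 lower (5.48%) and 19 higher (3.47%) in DYT1KI crush striatum. DESeq2 and limma voom also called 0, with 51 and 54 miRNAs at an unadjusted p under 0.05. Estimates below 0 were 286 of 547 (52.3%), and the median log2 difference was -0.01. Throughout, a log2 difference is DYT1KI crush minus WT naive unless another pair is named, so a negative value is a lower level in DYT1KI crush striatum.

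The intervals show how large a difference the data would still allow. For 451 of 547 miRNAs (82.5%) the 95% confidence interval of the difference lay within 2-fold in either direction, and for 311 (56.9%) within 1.5-fold; these intervals are not adjusted for the number of miRNAs. Among the 70 miRNAs with over 1000 CPM, all 70 intervals lay within 2-fold and 65 within 1.5-fold, and the estimates ran from -0.29 to 0.47. Among the 242 miRNAs under 10 CPM only 155 lay within 2-fold. All 10 miRNAs with an estimate of 2-fold or more were under 10 CPM.

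**Figure D1:**
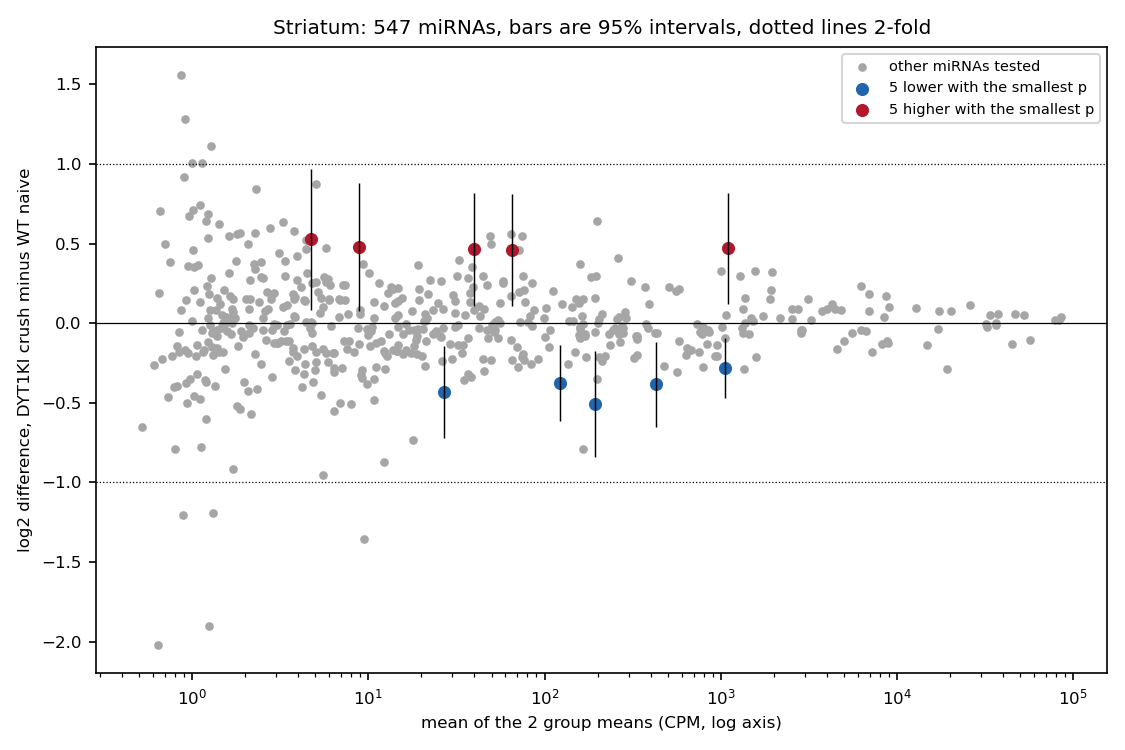
Log2 difference between DYT1KI crush and WT naive striatum (vertical axis) against the mean level of the 2 groups (CPM, log axis) for the 547 miRNAs tested, with the 5 lower (blue) and 5 higher (red) miRNAs of smallest p and their 95% intervals. The cloud narrows with level, and the 10 points beyond the dotted 2-fold lines are all under 10 CPM.

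Of the 5 leading lower miRNAs, 4 come from the imprinted chromosome 12 domain and the fifth, miR-218-5p, is enriched in neurons. None passed the threshold, and each had an adjusted p of 0.491 in edgeR's quasi-likelihood test. miR-337-3p was at 76.0 to 135.1 CPM (median 106.2) in DYT1KI crush striatum and at 131.4 to 155.5 CPM (median 134.0) in WT naive striatum. The groups touched through a single DYT1KI crush library, since the other 5 lay below every WT naive library. The log2 difference was -0.37 ± 0.12 (SE), with a 95% interval of -0.61 to -0.13.

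miR-487b-3p was at 99.3 to 213.4 CPM (median 166.7) in DYT1KI crush striatum and at 187.2 to 285.4 CPM (median 225.1) in WT naive striatum. Its log2 difference of -0.51 ± 0.16 was the largest in size of the 5, and 4 of 6 DYT1KI crush libraries lay below all WT naive ones. miR-218-5p, abundant in motor and dopamine neurons among others, was at 814.0 to 1097 CPM (median 963.2) in DYT1KI crush striatum and at 1053 to 1285 CPM (median 1145) in WT naive striatum. The difference was -0.28 ± 0.09, and the groups overlapped through 1 DYT1KI crush library.

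miR-411-3p was at 19.2 to 25.4 CPM (median 23.6) in DYT1KI crush striatum and at 24.3 to 33.7 CPM (median 32.2) in WT naive striatum, a log2 difference of -0.43 ± 0.14. Its seed relative miR-379-3p, which was named after its value was seen, had a difference of -0.38 ± 0.17 (adjusted p = 0.509, edgeR) at means of 8.503 and 11.1 CPM in DYT1KI crush and WT naive striatum. miR-380-3p was at 261.9 to 466.1 CPM (median 375.2) in DYT1KI crush striatum and at 464.9 to 507.8 CPM (median 482.3) in WT naive striatum, with a log2 difference of -0.38 ± 0.13. The WT naive libraries lay close together for miR-380-3p, whereas the DYT1KI crush libraries spread over a wider range and 5 of 6 lay below them.

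The 5 leading higher miRNAs come from different loci and overlapped more between the groups. miR-149-5p, from an intron of the heparan sulfate proteoglycan gene Gpc1, was at 831.1 to 1664 CPM (median 1283) in DYT1KI crush striatum and at 712.7 to 1231 CPM (median 870.6) in WT naive striatum. Its log2 difference was 0.47 ± 0.17 (adjusted p = 0.491, edgeR), and 4 of 6 DYT1KI crush libraries lay above all WT naive ones. miR-1843b-3p was at 40.4 to 55.4 CPM (median 43.5) in DYT1KI crush striatum and at 23.2 to 50.8 CPM (median 31.6) in WT naive striatum, a difference of 0.46 ± 0.17. Only 2 of its DYT1KI crush libraries lay above the highest WT naive library.

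miR-1224-5p, a mirtron that is spliced rather than cut by Drosha, was at 46.9 to 94.6 CPM (median 79.3) in DYT1KI crush striatum and at 41.2 to 71.1 CPM (median 55.9) in WT naive striatum, a difference of 0.46 ± 0.17. miR-25-5p, the minor arm of a hairpin in the miR-106b/25 cluster, was at 3.52 to 7.25 CPM in DYT1KI crush striatum and at 2.47 to 4.54 CPM in WT naive striatum, with a difference of 0.53 ± 0.21. miR-181a-2-3p, also a minor arm, was at 8.36 to 12.2 CPM in DYT1KI crush striatum and at 5.03 to 10.2 CPM in WT naive striatum, with a difference of 0.48 ± 0.20. Of these, 4 libraries of miR-1224-5p, 4 of miR-25-5p and 3 of miR-181a-2-3p in the DYT1KI crush group lay above every WT naive library. The 10 leading estimates kept their direction under every alternative run in striatum except that miR-181a-2-3p was at -0.04 among animal numbers under 100, with a single WT naive library. Their size varied with the mice that entered, and miR-487b-3p and miR-181a-2-3p had estimates of -0.28 and 0.21 within replicates 1 to 3 and -0.72 and 0.81 within replicates 4 to 6. DYT1KI crush replicates 1 to 3 and WT naive replicate 1 had animal numbers under 100, unlike the other libraries of these groups. The part of that numbering in this split was not tested.

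**Figure D2:**
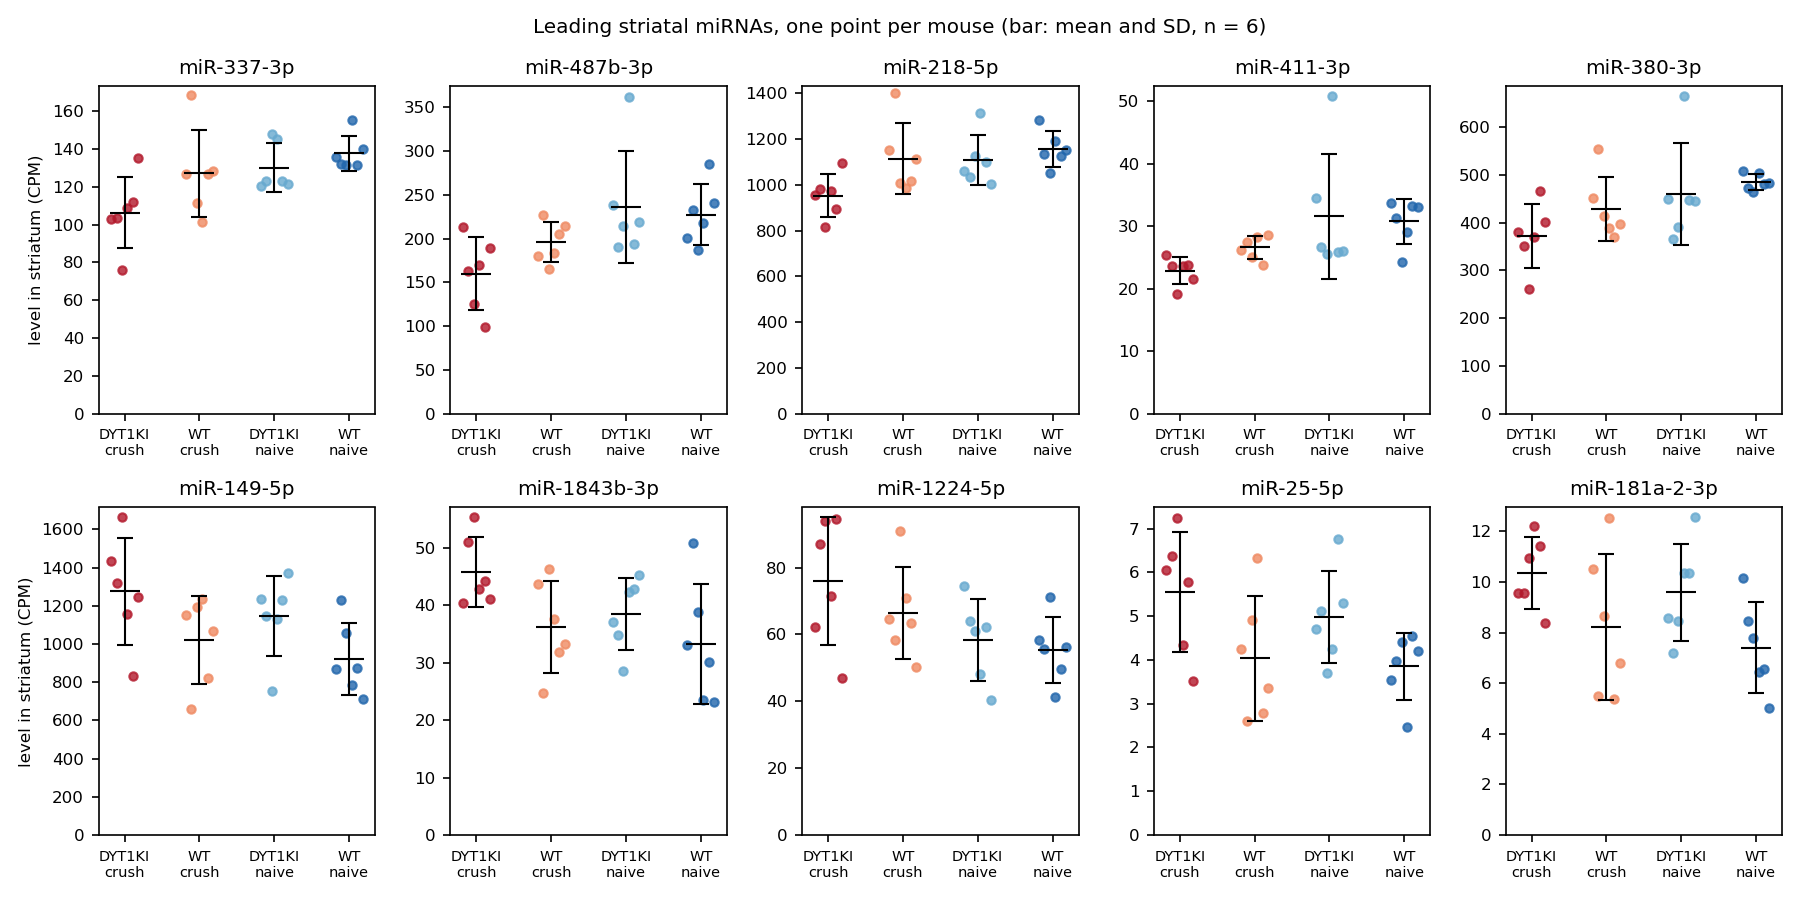
CPM of the 10 leading striatal miRNAs in each mouse of the 4 groups, from DYT1KI crush on the left to WT naive on the right, with mean and SD (n = 6). In the upper row the DYT1KI crush mice sit mostly below the WT naive mice, with miR-337-3p averaging 106.3 against 137.8 CPM, while in the lower row they sit mostly above, with miR-149-5p averaging 1275 against 921.1 CPM.

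Only 1 of 547 miRNAs (0.183%) separated the groups fully, and it was named after its values were seen. miR-668-5p, another miRNA of the imprinted domain, was at 2.86 to 4.29 CPM in DYT1KI crush striatum and at 4.30 to 5.37 CPM in WT naive striatum. The gap was narrow, and the log2 difference was -0.40 ± 0.16 (adjusted p = 0.509, edgeR). No miRNA had all 6 DYT1KI crush libraries above all 6 WT naive ones.

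The imprinted miRNAs of chromosome 12 were looked at together, after 4 of them had been seen among the leading miRNAs. From 109563744 to 109743784 on chromosome 12 (GRCm38.p6), 75 tested miRNAs had a RefSeq position and 0 passed. At an unadjusted p under 0.05, 11 of the 75 were lower and 1 was higher in DYT1KI crush striatum, beside 17 lower and 17 higher among the 395 tested miRNAs with a position outside the span. The 11 include miR-337-3p, miR-411-3p and miR-380-3p, which prompted this look, so the 2 counts are not compared on equal terms. The same holds for miR-487b-3p in the count of 12 below. Many of the 75 are both arms of a hairpin, counted in the same mice, so they are not separate observations. The span had a median log2 difference of -0.06 and those 395 a median of 0.00. Another 3 tested members of the lists of imprinted miRNAs, miR-487b-3p at -0.51, miR-376c-3p at -0.03 and miR-485-5p at 0.26, have no position in that table, and with them 12 of 78 were lower and 1 was higher. The other 74 miRNAs without a position, 1 lower and 1 higher, are on neither side of this comparison. By arm, the 39 tested 3p arms had a median of -0.07 with 8 lower and 1 higher, and the 36 tested 5p arms a median of -0.04 with 3 lower and 0 higher at that unadjusted p. Over all tested miRNAs, the span included, the 231 3p arms had a median of -0.03 with 16 lower and 6 higher. The 297 5p arms had a median of 0.003 with 14 lower and 13 higher. The 75 were mixed, with 45 estimates below 0 and 30 above. The only member higher at that level was miR-770-3p, at the start of the span, with means of 202.6 and 165.7 CPM in DYT1KI crush and WT naive striatum and a difference of 0.29 ± 0.13. The abundant miR-127-3p, which represses the retrotransposon-derived gene Rtl1 from the opposite strand, averaged 13150 CPM in DYT1KI crush and 12330 CPM in WT naive striatum, a difference of 0.09 ± 0.07. Of the list of the miR-379/410 cluster 32 members were tested, with a median of -0.03, 4 lower and 0 higher at an unadjusted p under 0.05. The list of the cluster around miR-127 had 14 tested members, a median of -0.05, 2 lower and 1 higher.

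**Figure D3:**
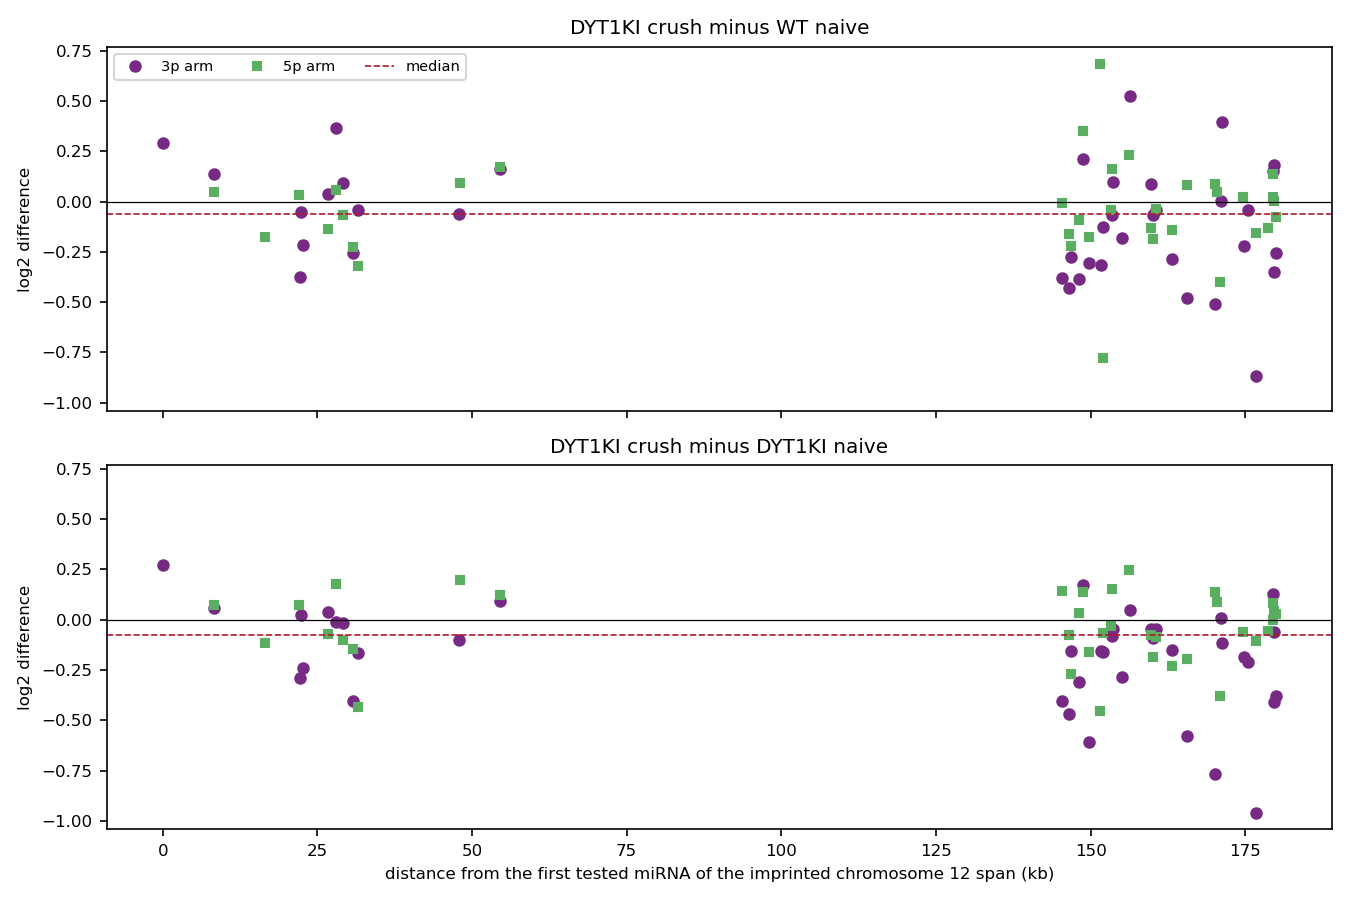
Log2 difference of the 75 tested miRNAs with a RefSeq position in the imprinted chromosome 12 span against distance (kb) from the first of them, for DYT1KI crush minus WT naive (upper panel) and DYT1KI crush minus DYT1KI naive (lower panel), with the median dashed at -0.06 and -0.08; miR-487b-3p, miR-376c-3p and miR-485-5p have no position there and are not plotted. Points lie on both sides of 0 along the span in both panels, and most of the points below -0.25 are 3p arms.

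Neuronal miRNAs gave small estimates. Of the 10 neuron-enriched miRNAs 0 passed and 9 had estimates below 0, with a median of -0.12, beside 52.3% below 0 and a median of -0.01 over all miRNAs. miR-124-3p, the main miRNA of differentiated neurons, was at 14320 to 22120 CPM (median 16480) in DYT1KI crush striatum and at 17390 to 27100 CPM (median 20330) in WT naive striatum. Its log2 difference was -0.29 ± 0.18 with an interval of -0.65 to 0.08. miR-9-5p, a regulator of neural progenitors that is also high in neurons, averaged 31880 CPM in DYT1KI crush and 31950 CPM in WT naive striatum, a difference of 0.00 with an interval of -0.18 to 0.18. The striatal markers miR-187-3p and miR-138-5p had differences of -0.04 ± 0.09 and -0.11 ± 0.08. In such bulk tissue, fewer cells of a type and less RNA per cell cannot be told apart.

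Of the 9 miRNAs linked to neuronal activity 0 passed and 7 had estimates below 0, with a median of -0.27. At an unadjusted p under 0.05, 3 were lower. Over all miRNAs 52.3% of estimates were below 0 and 5.48% were lower at that level. miR-212-3p, which is transcribed with miR-132-3p under the activity-dependent factor CREB, was at 27.2 to 33.6 CPM (median 30.7) in DYT1KI crush striatum and at 29.9 to 48.8 CPM (median 38.8) in WT naive striatum. The DYT1KI crush libraries lay within the lower part of the WT naive range or below it, and the difference was -0.36 ± 0.14 (adjusted p = 0.509, edgeR). miR-132-3p, from the same transcript and with the same seed, was at 370.3 to 496.5 CPM (median 407.5) in DYT1KI crush striatum and at 320.3 to 508.8 CPM (median 449.0) in WT naive striatum, a difference of -0.06 ± 0.15. Its other arm miR-132-5p had a difference of -0.27 ± 0.12 and miR-381-3p one of -0.29 ± 0.11. With miR-212-3p these are the 3 lower members. miR-212-3p and miR-132-5p share a transcript, and miR-381-3p also counts in the imprinted span above. The list of striatal dopamine signalling, with 10 tested members, had a median of -0.06 and 6 estimates below 0.

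Glial and inflammatory miRNAs gave 0 calls as well. Of the 9 miRNAs of microglia and inflammation 8 had estimates below 0, with a median of -0.18 and 2 lower at an unadjusted p under 0.05. The shares over all miRNAs were 52.3% below 0 and 5.48% lower at that level. miR-146a-5p, which NF-kB induces and which damps Toll-like receptor signalling, was at 30.3 to 37.9 CPM (median 33.8) in DYT1KI crush striatum and at 30.9 to 61.9 CPM (median 40.6) in WT naive striatum. The WT naive libraries spread more widely, and the difference was -0.34 ± 0.12 (adjusted p = 0.491, edgeR). miR-21a-5p, which rises in many reactive and injured tissues, averaged 717.3 and 867.8 CPM in DYT1KI crush and WT naive striatum, a difference of -0.27 ± 0.12. miR-155-5p, a miRNA of activated immune cells, had a difference of -0.07 ± 0.15. Among the 4 oligodendrocyte miRNAs the median was 0.09, and miR-219a-5p, which promotes oligodendrocyte differentiation, was at only 1.14 to 3.63 CPM in DYT1KI crush and 0 to 2.81 CPM in WT naive striatum.

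Lists tied to the mutation and to the injury were mixed. For comparison, 52.3% of all estimates were below 0, with 5.48% lower and 3.47% higher at an unadjusted p under 0.05. Of 12 tested miRNAs linked to endoplasmic reticulum stress, 8 had estimates below 0, with a median of -0.02, 1 lower and 1 higher at an unadjusted p under 0.05. These were miR-221-3p, with a difference of -0.31 ± 0.12 and means of 506.7 and 626.9 CPM in DYT1KI crush and WT naive striatum, and miR-25-3p, with 0.20 ± 0.10 and means of 76.6 and 66.8 CPM. Of 12 tested miRNAs known from peripheral nerve injury, 9 had estimates below 0, with a median of -0.06 and 3 lower at an unadjusted p under 0.05, namely miR-146a-5p, miR-21a-5p and miR-221-3p. All 3 were already counted above, miR-146a-5p and miR-21a-5p with microglia and inflammation and miR-221-3p with endoplasmic reticulum stress. miR-206-3p, a skeletal muscle miRNA that is also present in striatum, averaged 276.2 and 281.6 CPM in DYT1KI crush and WT naive striatum.

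Groups of related miRNAs had mostly small estimates, beside 52.3% of estimates below 0 over all miRNAs. In the let-7 family 8 of 9 members had estimates above 0 with a median of 0.04, and all 9 intervals lay within 1.5-fold. let-7g-5p averaged 53680 CPM in DYT1KI crush and 51770 CPM in WT naive striatum. All 5 miR-30, all 4 miR-181 and all 3 miR-29 family members had estimates below 0, with medians of -0.11, -0.18 and -0.05, and each interval lay within 1.5-fold. The miR-15/16 family had a median of -0.02, with miR-195a-5p at -0.24 ± 0.10, while the miR-17-92 cluster and its paralogs, whose members hold different seeds, had 0.08, with miR-17-5p at 0.37 ± 0.17. The list of miR-125 and miR-99/100, also of different seeds, had a median of 0.15, with miR-99b-5p at 0.30 ± 0.13, or 1418 CPM in DYT1KI crush and 1155 CPM in WT naive striatum. None of these passed the threshold.

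Marker lists of neighbouring tissue and blood held few tested members, and 52.3% of estimates over all miRNAs were below 0. Of 4 tested miRNAs of choroid plexus and ependyma all 4 had estimates below 0, with a median of -0.47, and their summed level was 327.1 to 474.7 CPM in DYT1KI crush striatum and 361.9 to 635.4 CPM in WT naive striatum. miR-34b-5p, from the miR-34b/c locus of multiciliated cells, was at 1.42 to 5.67 CPM in DYT1KI crush striatum and at 3.08 to 11.4 CPM in WT naive striatum, a difference of -0.96 ± 0.37 (adjusted p = 0.509, edgeR). From the same locus miR-34c-5p had -0.79 ± 0.41, while miR-204-5p had -0.15 ± 0.15 and miR-449a-5p -0.07 ± 0.09. Of 3 blood miRNAs, miR-144-3p of the erythroid miR-144/451 locus was at 1.28 to 8.34 CPM in DYT1KI crush striatum and at 4.89 to 25.5 CPM in WT naive striatum, a difference of -1.35 ± 0.64. The pair miR-486a-5p/486b-5p, also erythroid, had a difference of 0.55 ± 0.26, and the summed blood level was 47.3 to 85.2 CPM in DYT1KI crush striatum and 26 to 104.6 CPM in WT naive striatum. The medians were 0.08 for the 5 miRNAs of endothelium and vessel wall, 0.03 for 6 hosted in introns of the serotonin receptor gene Htr2c, -0.09 for 4 of the epithelial miR-200 family and -0.01 for 3 muscle miRNAs. Their part in other results was not tested.

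**Figure D4:**
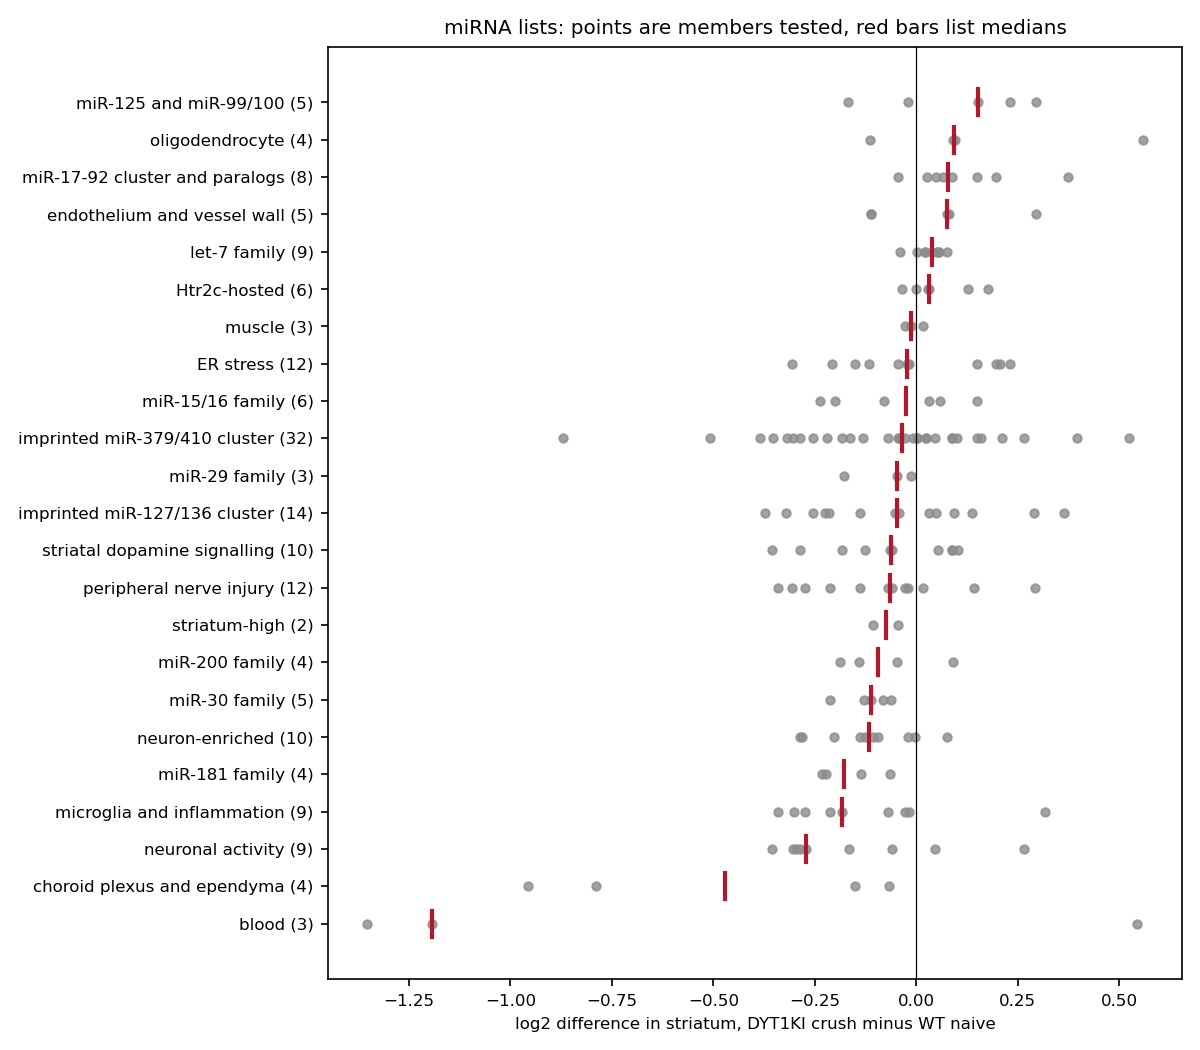
Log2 difference between DYT1KI crush and WT naive striatum of every tested member (grey points) of the 23 miRNA lists, ordered by list median (red bars), with the number of tested members in brackets. Most medians lie within 0.2 of 0; those of the blood, choroid plexus and neuronal activity lists, at -1.19, -0.47 and -0.27, lie farther below.

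The 4 steps that make up the double hit gave 0 calls each at an adjusted p under 0.05. They share groups with one another, and their values are therefore given side by side only. At an unadjusted p under 0.05 there were 15 miRNAs (2.74%) for DYT1KI naive over WT naive, 29 (5.3%) for WT crush over WT naive, 72 (13.2%) for DYT1KI crush over WT crush and 46 (8.41%) for DYT1KI crush over DYT1KI naive. For the interaction, the test of whether both hits together differ from their sum on the log2 scale, 0 of 547 passed and 16 (2.93%) had an unadjusted p under 0.05. In the authors' deposited tables for these 4 comparisons, 0 of 952 miRNAs each had an adjusted p under 0.05, and the smallest was 0.0964, for DYT1KI crush against DYT1KI naive. The double-hit comparison itself has no table among those used here.

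The leading lower miRNAs had small estimates for the mutation in naive mice. For DYT1KI naive minus WT naive, miR-337-3p was at -0.08, miR-487b-3p at 0.05, miR-218-5p at -0.06, miR-411-3p at 0.04 and miR-380-3p at -0.08. In DYT1KI naive replicate 4, miR-487b-3p was at 361.2 CPM, miR-411-3p at 50.9 and miR-380-3p at 666.7. The other DYT1KI naive libraries were at 189.8 to 237.9, 25.6 to 34.4 and 365.3 to 449 CPM. That library was also the highest for miR-218-5p but not for miR-337-3p, and no fit left out only that library. For DYT1KI crush minus DYT1KI naive the leading lower miRNAs, in the same order, were at -0.29, -0.56, -0.22, -0.47 and -0.31. WT crush minus WT naive gave -0.11, -0.22, -0.06, -0.21 and -0.18. None of these passed. miR-149-5p instead had 0.31 for the mutation in naive mice and 0.15 for the injury in WT mice. The leading lower miRNAs were chosen for a low level in DYT1KI crush against WT naive striatum. Every step holds DYT1KI crush or WT naive, so their estimates lean below 0 by that choice. In WT crush striatum miR-337-3p was at 101.1 to 168.7 CPM, miR-487b-3p at 165.7 to 227.2 and miR-218-5p at 985.6 to 1403. There miR-411-3p was at 23.8 to 28.6 CPM and miR-380-3p at 371 to 553.8.

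miR-382-3p, another imprinted miRNA, led the injury comparison in DYT1KI mice. It was at 3.98 to 10.01 CPM (median 6.30) in DYT1KI crush striatum, at 7.33 to 10.7 CPM (median 8.41) in WT crush, at 8.92 to 14.2 CPM (median 10.7) in DYT1KI naive and at 6.95 to 11.1 CPM (median 9.47) in WT naive striatum. The DYT1KI crush libraries were the lowest on the median and overlapped each other group. The log2 difference was -0.77 ± 0.18 over DYT1KI naive (adjusted p = 0.162, edgeR) and -0.51 ± 0.19 over WT naive (adjusted p = 0.491, edgeR). Among the fits that left out a single library it passed over DYT1KI naive without DYT1KI crush replicate 6, at an adjusted p of 0.0193 by edgeR, where the smallest adjusted p of that comparison over all settings ran from 0.0193 to 0.735.

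Other single steps were led by different miRNAs. miR-296-3p, from the imprinted Gnas locus, led the mutation effect in naive mice at -0.38 ± 0.12 and had -0.21 ± 0.12 in the double hit. miR-3059-3p led DYT1KI crush over WT crush at -0.46 ± 0.12 (adjusted p = 0.321, edgeR), and had -0.35 ± 0.12 in the double hit, with means of 9.48 and 12.1 CPM in DYT1KI crush and WT naive striatum. miR-200a-3p, of the epithelial miR-200 family, led WT crush over WT naive at 1.21 ± 0.37 and the interaction at -1.38 ± 0.53 (adjusted p = 0.872, edgeR). It was at 30.3 and 16.9 CPM in WT crush replicates 5 and 6 but between 3.99 and 7.47 CPM in the other WT crush libraries. In DYT1KI crush striatum it lay between 3.63 and 5.83 CPM and in WT naive striatum between 3.47 and 6.17 CPM, a double-hit difference of -0.14 ± 0.39.

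Some miRNAs were counted in an all-or-none manner. miR-377-3p had counts in 3 of 6 DYT1KI crush libraries and in 5 of 6 WT naive libraries, and in 5 of 6 of each other group. Where it was counted it had 81 to 210 counts, and in 6 libraries it had 0. Its fitted log2 difference was -0.87 ± 0.97, and Fisher's exact test of presence, two-sided, gave p = 0.545. miR-483-5p, from an intron of Igf2, had counts in 6 of 6 DYT1KI crush, 4 of 6 WT crush, 2 of 6 DYT1KI naive and 4 of 6 WT naive libraries, at 31 to 70 counts where present (p = 0.455 for DYT1KI crush against WT naive, two-sided Fisher's exact test). Neither presence pattern separated DYT1KI crush from WT naive striatum.

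Cortex and cerebellum of the same 12 mice gave the same comparison in other tissue. In a limma voom model over all 71 libraries and 629 miRNAs, with the correlation between regions of an animal estimated at 0.095, the double hit gave 0 calls in striatum (0%), 89 in cortex (14.1%) and 68 in cerebellum (10.8%), of which 63 (10%) and 53 (8.43%) were lower and 26 (4.13%) and 15 (2.38%) higher in DYT1KI crush mice. At an unadjusted p under 0.05 there were 33 miRNAs (5.25%) in striatum, 208 (33.1%) in cortex and 179 (28.5%) in cerebellum. Tested directly, however, the striatal difference minus the cortical one gave 0 calls of 629, with 81 (12.9%) at an unadjusted p under 0.05, and the striatal minus the cerebellar one also gave 0, with 76 (12.1%). The data thus do not show that any miRNA responded otherwise in striatum than in the other regions. The smallest adjusted p of these tests were 0.182 for miR-3102-3p against cortex and 0.239 for miR-127-3p against cerebellum. The cortical count fell to 0 without any one of DYT1KI crush replicates 4, 5 and 6 or WT naive replicate 3, to 4 and 21 without WT naive replicates 1 and 2, and was between 137 and 153 without DYT1KI crush replicate 2 or 3 or WT naive replicate 6. The cerebellar count was 24, 28 and 44 without DYT1KI crush replicates 2, 3 and 5, 17 and 33 without WT naive replicates 1 and 2, and at most 88. In these regions too, animal numbers under 100 belonged to 3 DYT1KI crush mice and 1 WT naive mouse. The regional model held no term for that range, so its part in these calls was not tested.

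All 5 leading lower striatal miRNAs had estimates below 0 in both other regions, where the medians over all 629 miRNAs were -0.01 in cortex and -0.10 in cerebellum. CPM of cortex and cerebellum are given under the scaling common to the 3 regions, not the striatal one used above. Under that common scaling miR-487b-3p was at 82.5 to 183.6 CPM in DYT1KI crush striatum and at 149.3 to 234.2 CPM in WT naive striatum. It was at 82.8 to 216.3 CPM (median 133.5) in DYT1KI crush cortex and at 179 to 300 CPM (median 244.1) in WT naive cortex. In cerebellum it was at 41.5 to 89.0 CPM (median 58.1) in DYT1KI crush and at 80.0 to 235.8 CPM (median 118.4) in WT naive mice. Its log2 difference was -0.49 ± 0.25 in striatum by this model, -0.82 ± 0.25 in cortex (adjusted p = 0.0266, limma) and -1.10 ± 0.27 in cerebellum (adjusted p = 0.00865, limma). The cerebellar call stood without each of the 12 libraries in turn, with an adjusted p of at most 0.0493, and the cortical one stood in 6 of 12.

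miR-218-5p had a median of 707 CPM in DYT1KI crush cortex and 1084 CPM in WT naive cortex, and of 290.3 CPM in DYT1KI crush and 439.5 CPM in WT naive cerebellum. It was lower by this model in cortex (-0.63 ± 0.16, adjusted p = 0.0178, limma) and in cerebellum (-0.59 ± 0.17, adjusted p = 0.0157, limma), with calls in 7 and 9 of 12 fits without 1 library. miR-380-3p passed in cortex (-0.61 ± 0.21) and in cerebellum (-0.70 ± 0.21), and stood in 6 and 7 of those 12 fits. miR-411-3p passed in cortex (-0.998 ± 0.297) but not in cerebellum (-0.92 ± 0.40, adjusted p = 0.109, limma), and its cortical call stood in 6 of 12. The libraries whose omission ended these cortical calls were DYT1KI crush replicates 4, 5 and 6 and WT naive replicates 1, 2 and 3, except that miR-218-5p kept its call without WT naive replicate 2. In cerebellum the call of miR-218-5p was lost without DYT1KI crush replicate 2 or 3 or WT naive replicate 1, and that of miR-380-3p without DYT1KI crush replicate 2, 3 or 6 or WT naive replicate 1 or 3.

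miR-337-3p had counts of 0 in 2 of 6 DYT1KI crush cerebella, so no fold is given there. All 6 DYT1KI crush cerebella, at 0 to 83.3 CPM, lay below the 6 WT naive cerebella at 87.6 to 144.9 CPM (adjusted p = 0.0142, limma, not passed without DYT1KI crush replicate 2 or 3). In cortex it was at 44.2 to 83.3 CPM in DYT1KI crush and 73.1 to 104.6 CPM in WT naive mice and did not pass. Of the 5 leading higher miRNAs 0 passed in either other region with all libraries, and 5 had estimates above 0 in cortex and 4 in cerebellum. miR-1224-5p came closest, at 1.02 ± 0.37 in cortex (adjusted p = 0.0504, limma), with a median of 185.8 CPM in DYT1KI crush and 105.5 CPM in WT naive cortex. Without single libraries it passed in 6 of 12 cortical fits, with an adjusted p of 0.0273 to 0.177 by limma, and miR-25-5p in cortex and miR-149-5p in cerebellum passed in 1 of 12 each. The striatal and the other regional values come from separate libraries of the same mice, and so are not independent in animal.

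**Figure D5:**
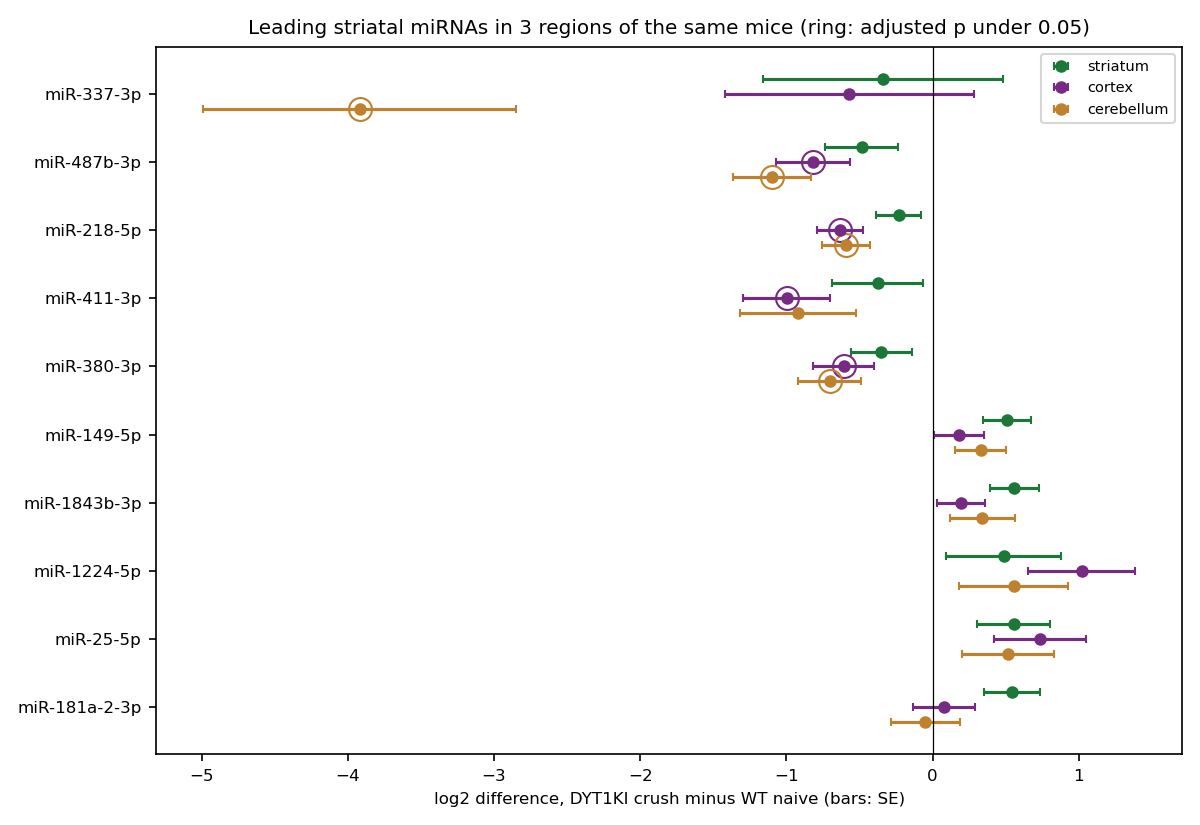
Log2 difference between DYT1KI crush and WT naive mice (points, with SE) of the 10 leading striatal miRNAs in striatum, cortex and cerebellum from the limma voom model, with a ring where the adjusted p was under 0.05. The striatal points of the upper 5 miRNAs lie between -0.49 and -0.23, nearer to 0 than the cortical and cerebellar points; no difference between regions passed the test, and the far cerebellar point of miR-337-3p rests on 2 libraries at 0.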

How the data were processed

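Small RNA was sequenced from the striatum of 24 mice, in 4 groups of 6, with a miRNeasy micro kit and the QIAseq miRNA kit per the labels' protocols. The authors deposited raw counts per mature miRNA (1927 in each table) beside their log2 fold changes and adjusted p-values, per the file headers. R 4.1.0 and featureCounts 1.6.4 are listed per the submitters' processing notes. Which aligner, genome build and treatment of molecular identifiers were used is not given in the sources used here, so counting intervals would cover counting error only.

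From the counts, edgeR 4.0.16 (R 4.3.3) fitted the 4 striatal groups together, with TMM, filterByExpr (minimum count 10, total 15) and the robust quasi-likelihood test. An adjusted p under 0.05 was a call. Standard errors come from the F statistic. Regions were compared with limma 3.58.1, and DESeq2 1.42.0 was an alternative. The fit was tested on simulated data.

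Named miRNAs are the 5 with the smallest p per direction, the leader of each single step, interaction, regional difference and list, 9 fixed miRNAs and all-or-none ones. Exceptions named after their values were seen are miR-668-5p, miR-379-3p and further list members at an unadjusted p under 0.05. The comparison, lists and tests were chosen with earlier results of these data known.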

Additional observations from a re-analysis of the deposited data

Results flagged for a closer look

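Among the miRNAs named above, a single library stood far from the other 5 of its group on the log2 scale in 3 of 102 groups examined, where chance alone marks about 1 in 20. Only DYT1KI crush and WT naive striatum were examined in this way. miR-377-3p in WT naive replicate 4 was at 0 CPM against 13.7 to 24.1 CPM in the other WT naive libraries (gap over range 0.879). miR-127-3p in DYT1KI crush replicate 5 was at 11050 CPM against 13080 to 14070 CPM in the other DYT1KI crush libraries (gap over range 0.699). miR-369-3p in WT naive replicate 3 was at 186.7 CPM against 219.8 to 242.2 CPM in the other WT naive libraries (gap over range 0.627).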

How the results depend on the processing

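The count of double-hit miRNAs in striatum was 0 under 26 of 27 alternatives, which changed scaling, filter, test, libraries or batch terms. In those 26, the number at an unadjusted p under 0.05 ran from 24 of 554 miRNAs, among animal numbers of 100 and over, to 96 of 954 with no filter. Their smallest adjusted p ran from 0.115 to 0.833, both by edgeR. The exception, added after seeing the data, kept animal numbers under 100, with 1 WT naive library: 1 miRNA, miR-494-5p, was called, higher in DYT1KI crush, and 1 each for DYT1KI naive and WT crush over WT naive, again miR-494-5p, which had a count of 0 in that WT naive library. Without the 2 libraries farthest out on the first component, a setting chosen after seeing the data, 0 passed and 41 had an unadjusted p under 0.05. Animal number range as a term left 40. Replicate numbers did not pair the mice: the correlation of same-numbered deviations was over 0.1 in 3 of 6 pairs (-0.10 to 0.34), and 2 of 6 libraries matched their own number best. With the replicate block the double hit kept 0 calls (47 at an unadjusted p under 0.05), and DYT1KI crush over DYT1KI naive gained 1, miR-382-3p, at an adjusted p of 0.0472. Leaving out single DYT1KI crush or WT naive libraries gave DYT1KI crush over DYT1KI naive 0 to 1 calls. Within biological replicates 4 to 6, DYT1KI naive over WT naive gained 2, miR-667-3p at 1.26 and miR-1843b-3p at 0.74. In all other fits of the steps and the interaction the count was 0, as it was for the regional differences under 3 alternatives. Without single libraries, fits also added after seeing the data, the count was 0 to 153 in cortex and 17 to 88 in cerebellum.

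Of the striatal estimates of named miRNAs under alternatives 1324 kept their direction and 40 did not. None of the 40 passed. miR-9-5p took 0.0101 with DESeq2 or its size factors, 0.0034 with no filter, 0.0002 with a stricter filter, 0.0161 with upper-quartile scaling, 0.0431 within replicates 4 to 6, 0.0623 without the 2 outlying libraries and -0.0471 to 0.0552 without single libraries. miR-206-3p took 0.0142 with upper-quartile scaling, 0.1287 within replicates 1 to 3 and -0.1652 to 0.0552 without single libraries. Within replicates 1 to 3, miR-145a-5p was at -0.0606, miR-155-5p at 0.0249, miR-181d-5p at 0.1165 and miR-187-3p at 0.0563. Within replicates 4 to 6, let-7g-5p was at -0.0021 and miR-29b-3p at 0.0176. Without single libraries miR-155-5p ran from -0.1498 to 0.0009 and miR-187-3p from -0.0835 to 0.0302. Among animal numbers under 100, miR-181a-2-3p was at -0.0359, miR-145a-5p at -0.4977, miR-764-3p at -0.126, miR-429-3p at 0.0799, miR-206-3p at 0.2253, miR-181d-5p at 0.1365, miR-17-5p at -0.3025, miR-155-5p at 0.0682, miR-187-3p at 0.0412, miR-25-3p at -0.1752 and miR-127-3p at -0.033. Among those of 100 and over, miR-29b-3p was at 0.1246 and miR-9-5p at 0.0855. For miR-181a-2-3p, fits without single libraries ran from -0.0052 to 0.1501 in cortex and from -0.1513 to 0.2029 in cerebellum. The causes were not tested. Precision fell with level, and under 10 CPM 87 of 242 intervals reached beyond 2-fold.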
